A study of Mus musculus with 12 samples.

Results

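The replication-dependent histone genes encode the bulk histones that package newly copied DNA. They were taken here as the protein-coding genes of the deposited count table whose symbols begin with Hist1h, Hist2h, Hist3h or Hist4h, without pseudogene names and with at least 50 counts over the 12 libraries. The rule gave 64 members among the 52550 genes of the table: 5 genes of the linker histone H1, 17 of H2A, 17 of H2B, 12 of H3 and 13 of H4. Of 67 such genes in the table, Hist1h2aa with 12 counts, Hist2h2bb with 27 and Hist1h1t with 49 fell short of the minimum, and the members nearest to it were Hist2h3b with 61 counts and Hist1h2ba with 156. All 64 members passed the filter on low counts, and 52 of them lie on chromosome 13, 9 on chromosome 3, 2 on chromosome 11 and 1 on chromosome 6.

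The libraries came from RNA immunoprecipitation sequencing (RIP-seq), in which RNA held by a protein is recovered with an antibody and sequenced beside the starting RNA (input). The groups were retina Ythdf1 IP, retina Ythdf2 IP and retina input, all from postnatal day 0 (P0), and cortex Ythdf1 IP, cortex Ythdf2 IP and cortex input, all from embryonic day 12.5 (E12.5), with 2 libraries in each. All animals were wild-type C57BL/6 mice, and the tissue was dissociated before the IP. Neither separate animals for the replicates nor a library with an unrelated antibody are named in the labels, so p-values measure only the spread between these libraries, which may be technical, and the input was the background.

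Ythdf1 and Ythdf2 are readers of N6-methyladenosine (m6A), a base modification of mRNA, and act in the cytoplasm. Linker histone H1 binds the DNA between nucleosomes, whereas H2A, H2B, H3 and H4 form the nucleosome core. Cluster histone mRNAs are made mainly in S phase, most have no intron, and they end in a short RNA stem-loop instead of a poly(A) tail. The stem-loop is bound by the protein Slbp, which directs 3′ end cleavage, translation and, at the end of S phase, decay with the helicase Upf1. In the developing cortex and retina these mRNAs are therefore known as transcripts of dividing progenitors. The labels name a stranded TruSeq kit, and whether poly(A) RNA was selected is not given in the sources used here.

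The 3′ stem-loop is shown first because it is the element that sets these mRNAs apart. The histone stem-loop consensus of 16 bases, with any base allowed at 2 positions on each side of the stem and at the last position of the loop, was searched on the sense strand of GENCODE M21 transcripts (GRCm38) and occurred in 43 of the 64 members and in 25 of 14108 other protein-coding genes tested (0.177%). The annotation leaves fewer than 30 bases after the stop codon in some members, and among the 47 with at least 30 the pattern was found in 42. In each line the capitals mark the stem-loop match.

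Hist1h1e: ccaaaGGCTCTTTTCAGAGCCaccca
Hist1h2ac: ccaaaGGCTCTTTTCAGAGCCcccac
Hist1h2bb: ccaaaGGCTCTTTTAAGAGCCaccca
Hist1h3b: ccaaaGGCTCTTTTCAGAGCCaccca
Hist1h3c: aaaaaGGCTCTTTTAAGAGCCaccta
Hist1h4d: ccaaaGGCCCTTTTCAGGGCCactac
Hist1h4j: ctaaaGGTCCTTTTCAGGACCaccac
Hist4h4: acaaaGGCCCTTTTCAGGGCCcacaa

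The capitals of Hist1h1e lie at chr13:23621782-23621797 on the minus strand, those of Hist1h2ac at chr13:23683477-23683492 on the minus strand, and those of Hist1h2bb at chr13:23747203-23747218 on the plus strand. Those of Hist1h3b lie at chr13:23752820-23752835 on the plus strand and those of Hist1h3c at chr13:23745047-23745062 on the minus strand. For the H4 genes they lie at chr13:23581950-23581965 on the plus strand in Hist1h4d, at chr13:21735437-21735452 on the plus strand in Hist1h4j, and at chr6:136803998-136804013 on the minus strand in Hist4h4. All of these matches are in the exon downstream of the stop codon, which in the 42 located members began 21 to 58 bases after it. The stem differed by family. The 31 located matches of H1, H2A, H2B and H3 genes read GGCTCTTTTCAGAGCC in 25 members, GGCTCTTTTAAGAGCC in 5 and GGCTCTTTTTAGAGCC in 1, and so shared 1 stem. The 11 in H4 genes read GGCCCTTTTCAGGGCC in 7, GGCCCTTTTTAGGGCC in 2 and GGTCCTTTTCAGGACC in 2, and so had other stems than the rest. No match was found in Hist1h1a, Hist2h2be, Hist1h3g, Hist2h3b and Hist1h4a although at least 30 bases follow their stop codons in the annotation. Hist2h3b has 37 annotated bases there and Hist1h1a 48. A stem-loop beginning as far as 58 bases after the stop codon could thus lie beyond their annotated ends.

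Reads of these genes are not always unique to one gene. Of the 64 members, 11 overlap another counted gene and 32 share at least 50% of their 50-base words with transcripts of other genes, which leaves 29 members with neither problem (4 H1, 4 H2A, 8 H2B, 4 H3 and 9 H4). These 29 are called the members with certain reads below, a name that means only that they fall under both limits. Some lie just under the 50% limit, such as Hist1h2bg (49.7%), Hist1h3a (49.5%), Hist1h3f (49.3%) and Hist1h3c (47.0%). Part of their reads may thus still be shared with other genes. In the uncertain members Hist1h2be, Hist2h2aa1, Hist2h2aa2, Hist2h3c1 and Hist3h2a, replicates of 1 group differed widely. Hist1h2be, for example, had 0.129 and 48.0 normalised CPM in the retina Ythdf1 IPs, against 0.278 and 86.5 in the retina inputs. CPM, the share of a library's counts scaled to a common total, were normalised by the trimmed mean of M values (TMM).

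Library totals ran from 19530226 to 40515980 counts, and protein-coding genes held 4.65% to 41.1% of them. One library went against its label. The library labelled cortex input replicate 1 had 8967 counts of the mature-neuron kinase gene Camk2a, against 126 to 619 in the other 5 cortex libraries, and 145 counts of the progenitor gene Nes against 1847 to 28215. Its summed markers of dividing progenitors were 199 CPM of coding counts against 4363 to 6002, and its summed oligodendrocyte markers were 7544 against 31.6 to 65.1. Only 1201 of its counts fell in cluster histones, against 25467 to 352201 in the other 11 libraries. The cortex results that use it are therefore also given without it. In the retina libraries the photoreceptor factor Crx had 844 to 1474 counts, and Camk2a had 9 to 24.

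Summed over the members, cluster histones were lower in both IPs of the retina than in its inputs. They summed to 2651 and 2620 normalised CPM in the retina Ythdf1 IPs, 1288 and 1819 in the Ythdf2 IPs and 7375 and 5519 in the retina inputs. The 3 groups did not overlap, and the mean of the Ythdf1 IPs was 40.9% of the input mean, and that of the Ythdf2 IPs 24.1%. In the cortex the order differed: the sums were 4929 and 9347 in the Ythdf1 IPs, with 1453 and 3327 in the Ythdf2 IPs, against 2125 in input replicate 2 and 142 in the library labelled input replicate 1. Both cortex Ythdf1 IPs lay above both cortex inputs, whereas the Ythdf2 IPs lay on either side of input replicate 2. Over input replicate 2 alone, the mean share of cluster histones in the Ythdf1 IPs was 3.81 times as high among protein-coding counts and 1.18 times as high among all counts. As bulk tissue was used, fewer dividing cells and less histone RNA per cell cannot be told apart between inputs.

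**Figure D1:**
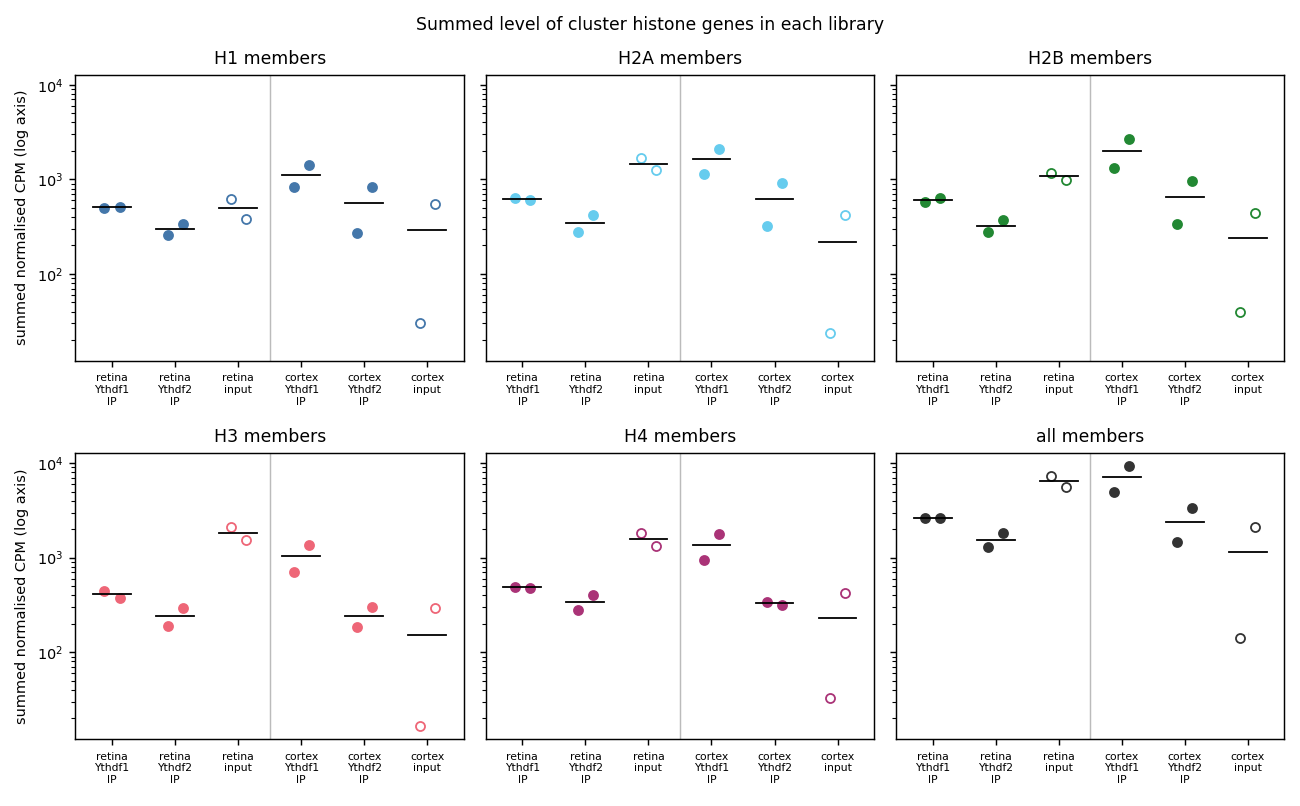
Summed normalised CPM of the members of each histone family (log axis) in each of the 12 libraries, by group; filled points are IPs, open points inputs, and lines mark group means of 2 libraries. In the retina the H3 and H4 sums of all 4 IPs lie below both inputs, while the H1 sums of the Ythdf1 IPs (502 and 511) lie between the inputs (621 and 385); the lowest cortex input point is the library that went against its label.

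The families did not move alike. H1 was the family least lowered in the retina IPs: it summed to 502 and 511 CPM in the Ythdf1 IPs, with 257 and 334 in the Ythdf2 IPs, against 621 and 385 in the inputs. The Ythdf1 IP mean was 506 ± 6.62 CPM and the input mean 503 ± 167 (SD, n = 2 each), a difference within the spread of the inputs. H3 was the family most lowered: it summed to 444 and 377 CPM in the Ythdf1 IPs, with 191 and 293 in the Ythdf2 IPs, against 2093 and 1551 in the inputs. The IP mean was 22.6% of the input mean with Ythdf1 and 13.3% with Ythdf2 for H3, 30.9% and 21.9% for H4, 42.4% and 23.8% for H2A, and 56.3% and 29.8% for H2B.

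The composition of the histone counts differed accordingly. Counts of H3 and H4 together were 35.2% and 32.6% of all cluster histone counts in the retina Ythdf1 IPs, 36.8% and 38.3% in the Ythdf2 IPs and 52.8% and 52.2% in the retina inputs. The exact 95% binomial intervals, which cover counting error only, reached from 32.3% to 38.8% over the 4 IPs and from 52.0% to 53.0% over the inputs. All 4 IPs thus lay below both inputs in this share. The intervals treat each count as a separate read. Near-identical genes such as Hist1h2bq and Hist1h2br had near-equal counts (2675 and 2672 in retina input replicate 1). Shared reads may therefore enter these sums more than once. Over the members with certain reads the shares were 48.6% and 46.7% in the Ythdf1 IPs, 52.2% and 52.9% in the Ythdf2 IPs and 67.8% and 67.8% in the inputs, the same order. H1 took 18.9% and 19.5% of the histone counts in the Ythdf1 IPs, with 19.9% and 18.3% in the Ythdf2 IPs, against 8.42% and 6.98% in the inputs. These shares are of counts, with no correction for transcript length.

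In the cortex the H3 and H4 share was 33.1% and 33.5% in the Ythdf1 IPs, with 36.3% and 18.4% in the Ythdf2 IPs, against 33.6% in input replicate 2 and 34.9% in input replicate 1. Over all members the cortex Ythdf1 IPs and inputs thus differed by less than 2 percentage points. The value that stood apart was Ythdf2 IP replicate 2. Restricted to members with certain reads, both cortex Ythdf1 IPs (41.4%, 43.4%) exceeded input replicate 2 (38.4%) and input replicate 1 (38.7%). Ythdf2 IP replicate 1 then had the highest cortex share (47.4%), while Ythdf2 IP replicate 2 still had the lowest (24.8%). In Ythdf2 IP replicate 2 H4 summed to 314 CPM, against 344 in Ythdf2 IP replicate 1. In the same order H1 summed to 840 and 272, and H2A to 911 and 318. Of the H4 members 5 were higher and 8 lower in replicate 2, whereas all 5 H1 and all 17 H2A members were higher. Across the 64 members the 2 cortex Ythdf2 IPs ranked the genes with a Spearman rho of 0.657, against 0.973 across all protein-coding genes; the other IP pairs had 0.888 to 0.970 across members.

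**Figure D2:**
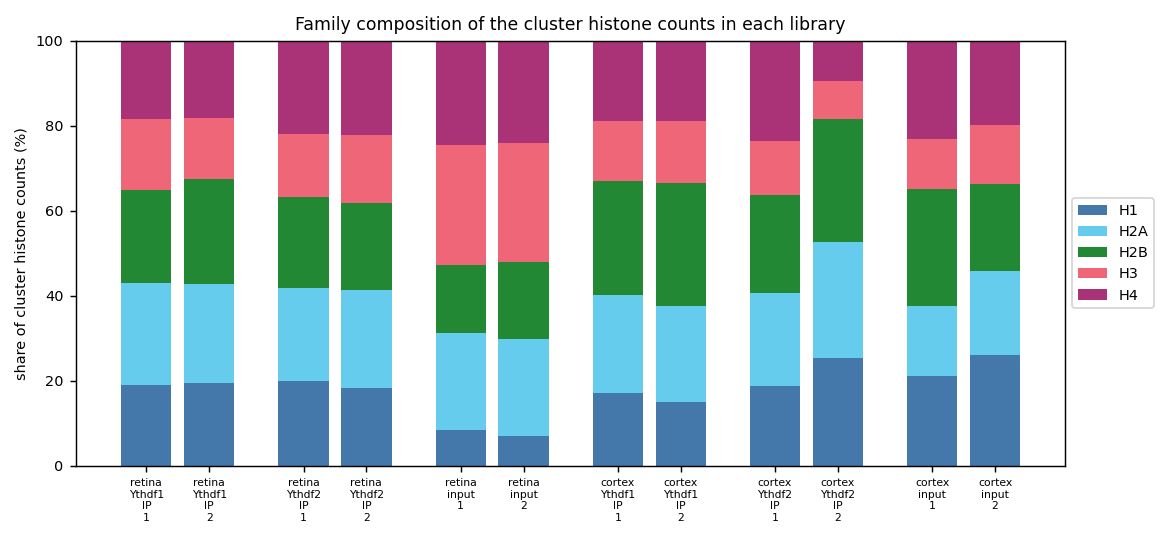
Share of the cluster histone counts (%) taken by each of the 5 families in each of the 12 libraries, stacked to 100. The 2 retina inputs have the largest H3 segments (28.4% and 28.1%) and the smallest H1 segments (8.42% and 6.98%), and the H4 segment of cortex Ythdf2 IP replicate 2 is the smallest (9.43%).

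Retina Ythdf1 IP was compared with retina input to ask which histone mRNAs the antibody recovered. Core histone mRNAs made up less of the IP RNA than of the input RNA: 0 members were higher (16% of all genes tested were) and 38 were lower (14.8% of all genes). The call was an adjusted p under 0.05 from edgeR's quasi-likelihood test on the 6 retina libraries, adjusted by Benjamini-Hochberg over 17854 genes. The median log2 fold change of the members was -1.11, against -0.06 for all genes tested. By family, 10 of 12 H3 genes were lower (median -2.29), 12 of 13 H4 genes (-1.59), 11 of 17 H2A genes (-1.05), 5 of 17 H2B genes (-0.57) and 0 of 5 H1 genes (-0.20). In 54 members both IPs lay below both inputs, as in 31.1% of all genes, and in 0 members above both (32.5%). Among the members with certain reads 17 of 29 were lower (median -1.12). Without Ythdf1 IP replicate 1 or replicate 2 the count fell to 15 or 21, and a single model of all 12 libraries called 0, against 28 in a single model without cortex input replicate 1.

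The member with the smallest p was Hist1h4a, an H4 gene, which had 37.8 and 33.2 CPM in the Ythdf1 IPs, against 309 and 190 in the inputs. The groups did not overlap, and the log2 fold change was -2.81 (SE 0.32, adjusted p = 0.000173). Hist1h3c, an H3 gene, had 49.0 and 37.9 CPM in the Ythdf1 IPs, against 290 and 214 in the inputs (log2 -2.54, SE 0.30, adjusted p = 0.000223). Hist1h3d, another H3 gene, fell to 40.8 and 41.4 CPM in the Ythdf1 IPs, against 261 and 192 in the inputs (log2 -2.46, SE 0.30, adjusted p = 0.000251). In each of these genes the lower input was over 4 times the higher IP. Hist1h4d, a further H4 gene, had 190 and 186 CPM in the Ythdf1 IPs, against 593 and 446 in the inputs (log2 -1.47, SE 0.27, adjusted p = 0.0025). Among H2B genes Hist1h2bb fell to 62.2 and 66.8 CPM in the Ythdf1 IPs, against 218 and 193 in the inputs (log2 -1.67, SE 0.27, adjusted p = 0.0011). Among H2A genes Hist1h2af, whose reads are uncertain, had 59.6 and 57.4 CPM in the Ythdf1 IPs, against 353 and 151 in the inputs (log2 -2.11, SE 0.37, adjusted p = 0.00182).

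In 4 of the 5 linker histone genes the Ythdf1 IPs and the inputs overlapped. Hist1h1e, which overlaps Hist1h2be in the annotation, had 262 and 270 CPM in the Ythdf1 IPs, against 277 and 160 in the inputs (log2 0.29, SE 0.30, adjusted p = 0.513). Hist1h1d had 83.6 and 85.8 CPM in the Ythdf1 IPs, against 126 and 68.6 in the inputs, and Hist1h1c had 87.7 and 80.1 in the Ythdf1 IPs, against 117 and 83.5 in the inputs. Their log2 fold changes were -0.20 and -0.26, with SEs of 0.30 and 0.29. The sign of all 3 depends on a single input library: without input replicate 1 Hist1h1d and Hist1h1c were at 0.30 and 0.01, and without input replicate 2 Hist1h1e was at -0.06. Hist2h2be, a variant H2B known from olfactory neurons in mice, had 3.41 and 3.06 CPM in the Ythdf1 IPs, against 3.62 and 2.46 in the inputs, also with overlap (log2 0.09, SE 0.36, adjusted p = 0.887).

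**Figure D3:**
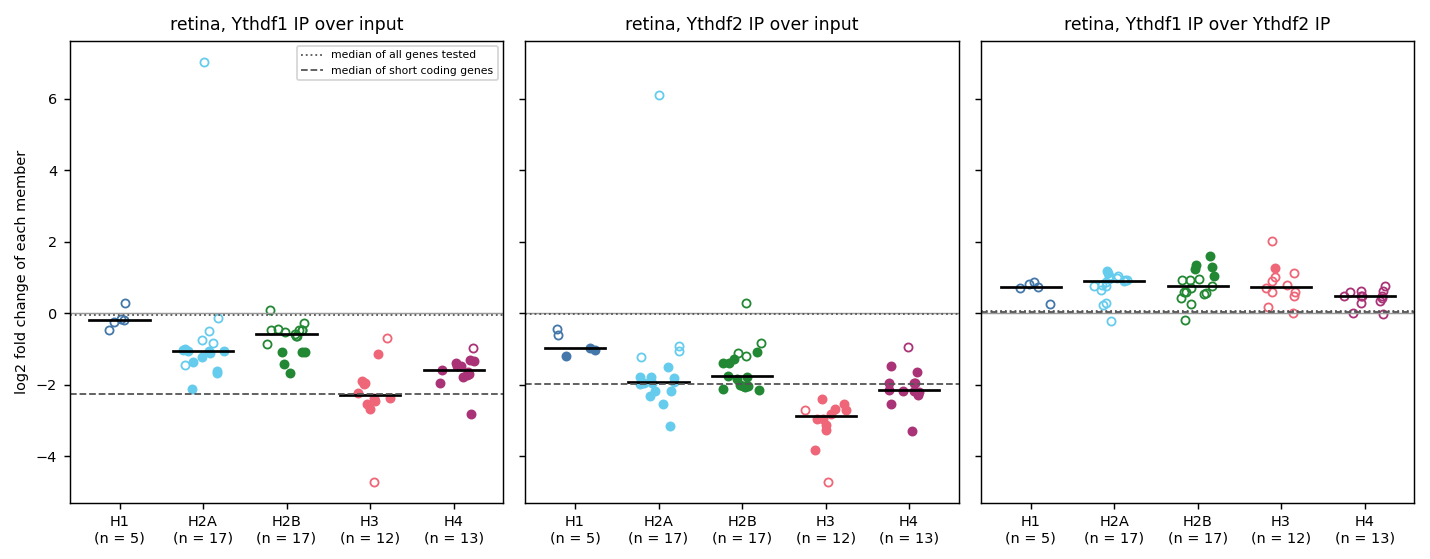
Log2 fold change of each of the 64 members in the 6 retina libraries, by family, for Ythdf1 IP over input, Ythdf2 IP over input and Ythdf1 IP over Ythdf2 IP; filled points have an adjusted p under 0.05, bars are family medians, the dotted line is the median of all genes tested and the dashed line that of short protein-coding genes. Over input the family medians of H3 and H4 are the lowest and that of H1 is the highest; the isolated high H2A point is Hist2h2aa2 and the lowest H3 point Hist2h3b, both listed at or near 0 in most retina libraries and with uncertain reads.

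Retina Ythdf2 IP against retina input gave the same direction. In this comparison 0 members were higher (7.63% of all genes tested were) and 51 were lower (8.69% of all genes), with a median log2 fold change of -1.96 against -0.01 for all genes. H3 had 10 of 12 lower (median -2.87), H4 12 of 13 (-2.14), H2A 13 of 17 (-1.92), H2B 13 of 17 (-1.76) and H1 3 of 5 (-0.97). In 57 members both IPs lay below both inputs (26.8% of all genes) and in 1, Hist2h2be, above both (27.8%). Among the members with certain reads 24 of 29 were lower. Without Ythdf2 IP replicate 1 the count was 26, and a single model of all 12 libraries called 0, against 44 without cortex input replicate 1. On library totals instead of TMM, under which the median of all genes was 0.18, 47 members were lower and 0 of the 5 H1 genes were called.

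Hist1h3f, an H3 gene, had 11.2 and 21.8 CPM in the Ythdf2 IPs and 271 and 192 in the inputs (log2 -3.81, SE 0.36, adjusted p = 7.77e-05). Hist1h3c had 23.3 and 34.5 CPM in the Ythdf2 IPs and 290 and 214 in the inputs (log2 -3.13, SE 0.31, adjusted p = 0.000104). Hist1h4a had 20.5 and 30.01 CPM in the Ythdf2 IPs and 309 and 190 in the inputs (log2 -3.30, SE 0.33, adjusted p = 0.000104). All 3 were at least 6-fold higher in the lower input than in the higher IP. The linker genes Hist1h1a, Hist1h1d and Hist1h1c fell with Ythdf2: Hist1h1a had 17.6 and 17.8 CPM in the Ythdf2 IPs and 49.9 and 30.6 in the inputs (log2 -1.19, SE 0.28, adjusted p = 0.0165). Hist2h2be, with 3.74 and 3.68 CPM in the Ythdf2 IPs, was not called (log2 0.29, SE 0.36, adjusted p = 0.651).

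Other short mRNAs were lower in the retina IPs as well. Of 241 other protein-coding genes with under 1000 exonic bases, 122 were lower and 6 higher with Ythdf1 (median -2.27), and 113 were lower and 0 higher with Ythdf2 (median -1.98). With Ythdf1 the median of the members (-1.11) was thus less low than that of the short genes, and with Ythdf2 (-1.96) it was close to it. Of 376 other single-exon protein-coding genes 41 were lower and 109 higher with Ythdf1 (median 0.89), and 39 were lower and 28 higher with Ythdf2 (median 0.11). Among the members themselves coding lengths run from 309 bases in H4 to 636 to 669 in H1. By family median, H1, the longest, was lowered least, and H4, the shortest, was lowered more than H2A and H2B. H3, at 408 to 543, was lowered more than the shorter H4, H2A (384 to 390) and H2B (378 to 381). Summed markers of other cells also differed between retina groups. The 4 endothelial markers summed to 1256 and 1280 CPM of coding counts in the Ythdf1 IPs, with 750 and 775 in the Ythdf2 IPs, against 274 and 267 in the inputs. Not every marker of this list rose: 1 was at 0 in Ythdf1 IP replicate 2 and 1 in each Ythdf2 IP, but 0 in the inputs. The 5 retinal ganglion cell markers summed to 120 and 121 in the Ythdf1 IPs, with 155 and 149 in the Ythdf2 IPs, against 290 and 250 in the inputs. The 8 dividing progenitor markers, none of them at 0 in a retina library, summed to 1577 and 1793 in the Ythdf1 IPs, with 1553 and 1566 in the Ythdf2 IPs, against 1730 and 2252 in the inputs. Of these, Mki67 had 15.7 CPM in retina input replicate 1 and 84.1 in replicate 2. The part of transcript length and cell type in the histone result was not tested.

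Between the antibodies, the members were mostly higher in the retina Ythdf1 IPs than in the Ythdf2 IPs. The test called 8 members higher (3.83% of all genes tested) and 0 lower (4.69%), with a median log2 difference of 0.72 against 0.07 for all genes. The 8 were Hist1h2ab and Hist1h2ac of H2A, Hist1h2bf, Hist1h2bg, Hist1h2bm, Hist1h2bn and Hist3h2ba of H2B, and Hist2h3c2 of H3. In 50 members both Ythdf1 IPs lay above both Ythdf2 IPs (33.7% of all genes) and in 1 below (26.3%). Other single-exon protein-coding genes differed between the antibodies to a like degree. Of 376 such genes 42 were higher (11.2%, against 12.5% of the members) and 12 lower, with a median of 0.70. Of 241 other short coding genes 16 were higher and 18 lower (median 0.03). Hist3h2ba, an H2B gene of the chromosome 11 cluster, had 16.8 and 13.9 CPM in the Ythdf1 IPs, with 4.70 and 5.47 in the Ythdf2 IPs (log2 1.60, SE 0.30, adjusted p = 0.0102). Hist1h2bn, whose reads are uncertain, had 96.0 and 96.6 CPM in the Ythdf1 IPs, with 33.8 and 41.6 in the Ythdf2 IPs (log2 1.35, SE 0.26, adjusted p = 0.0119). Neither pair of groups overlapped. These calls depend on single libraries: leaving out any 1 of the 4 retina IPs gave 0, leaving out either input gave 37, and a model of all 11 libraries other than cortex input replicate 1 gave 2.

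In the cortex the same comparisons were made with all 6 libraries first. No member was called in any of them, and neither was any other gene (0% of all genes tested in each direction); at an unadjusted p under 0.05 there were 37 members for Ythdf1 IP over input, 5 for Ythdf2 IP over input and 5 for Ythdf1 over Ythdf2 IP. DESeq2 called 17, 2 and 0. The median log2 fold changes of the members were 3.01, 1.30 and 1.69. Both Ythdf1 IPs lay above both inputs in 56 members (21.1% of all genes) and below both in 0 (14.4%). Both Ythdf2 IPs lay above both inputs in 24 (27.1%) and below both in 0 (17.5%). Both Ythdf1 IPs lay above both Ythdf2 IPs in 50 (19.8%) and below in 0 (22.1%). Without cortex input replicate 2, which leaves only the library that went against its label as input, 57, 55 and 18 members were called.

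Without the library labelled cortex input replicate 1, histone mRNAs were higher in the cortex Ythdf1 IPs than in the remaining input. The fit called 26 members higher (2.1% of all genes tested) and 0 lower (3.12%), with a median of 2.15 against -0.00 for all genes. The single input is assumed to vary like the other groups. By family 9 of 13 H4 genes were higher, 7 of 17 H2A, 7 of 17 H2B, 3 of 12 H3 and 0 of 5 H1, and among the members with certain reads 12 of 29. Of 251 short coding genes 4 were higher and 10 lower (median -0.07). The 5 erythroid markers summed to 1477 and 3510 CPM of coding counts in the Ythdf1 IPs, against 660 in that input, and the 8 dividing progenitor markers to 6002 and 4363 against 4515; their part in the histone result was not tested. Scaling mattered here, since protein-coding genes held 41.1% of the counts of input replicate 2 and 17.4% and 10.4% of those of the Ythdf1 IPs. On library totals the median of all genes was -1.39 and that of the members 0.64, with 3 members higher, and the median of H1 turned to -0.18.

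Hist1h4j, an H4 gene with the less common stem, had 43.5 and 75.7 CPM in the cortex Ythdf1 IPs, against 3.49 in input replicate 2 (log2 4.09, SE 0.63, adjusted p = 0.000679). Hist1h4f, also an H4 gene, had 77.7 and 163 CPM in the Ythdf1 IPs, against 9.87 in that input (log2 3.61, SE 0.64, adjusted p = 0.00205). Hist2h3c2, an H3 gene with uncertain reads, had 83.5 and 115 CPM in the Ythdf1 IPs, against 9.37 in that input (log2 3.40, SE 0.57, adjusted p = 0.0011). These genes were more than 7 times as high in each IP as in that input. The H1 genes were nearer to it: Hist1h1d had 194 and 342 CPM in the Ythdf1 IPs, against 197 in input replicate 2 (log2 0.45, SE 0.79, adjusted p = 0.821). Hist2h2be, with 2.39 and 3.75 CPM in the Ythdf1 IPs, against 3.41 in that input, was not called (log2 -0.17, SE 0.49, adjusted p = 0.909).

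In the cortex Ythdf2 IPs few members were called, and the share called higher was near that of all genes. Without input replicate 1, 2 members were higher (3.28% of all genes) and 0 lower (6.67%), with a median of 0.42 against 0.05. The 2 were Hist1h4j, with 18.9 and 8.95 CPM in the Ythdf2 IPs and 3.49 in the input (log2 2.00, SE 0.56, adjusted p = 0.0264), and Hist2h2aa1, whose reads are uncertain. Short coding genes were lower here (52 of 251, median -1.21). Set directly against the Ythdf2 IPs, the Ythdf1 IPs of the cortex were higher in 27 members (0.87% of all genes) and lower in 0 (0.0816%), with a median of 1.69 against -0.06. H3 with 9 of 12 and H4 with 12 of 13 held most of these calls, against 4 of 17 H2B, 2 of 17 H2A and 0 of 5 H1. Of 251 short coding genes 24 were higher (median 1.12). On library totals 0 members were called, the median of all genes was -1.33 and that of the members 0.19, and the medians of H1 (-0.57) and H2A (-0.05) turned negative.

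Hist4h4, the H4 gene on chromosome 6, had 17.1 and 28.2 CPM in the cortex Ythdf1 IPs, with 5.08 and 3.99 in the Ythdf2 IPs (log2 2.32, SE 0.37, adjusted p = 0.00194). Hist3h2ba, the member with the smallest p between the antibodies in the retina, had 30.2 and 45.7 CPM in the cortex Ythdf1 IPs, with 7.999 and 7.91 in the Ythdf2 IPs (log2 2.25, SE 0.37, adjusted p = 0.0022). Hist1h3g, an H3 gene with uncertain reads, had 25.9 and 41.4 CPM in the Ythdf1 IPs, with 6.26 and 7.42 in the Ythdf2 IPs (log2 2.30, SE 0.37, adjusted p = 0.00212). In all 3 the groups were at least 3-fold apart.

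**Figure D4:**
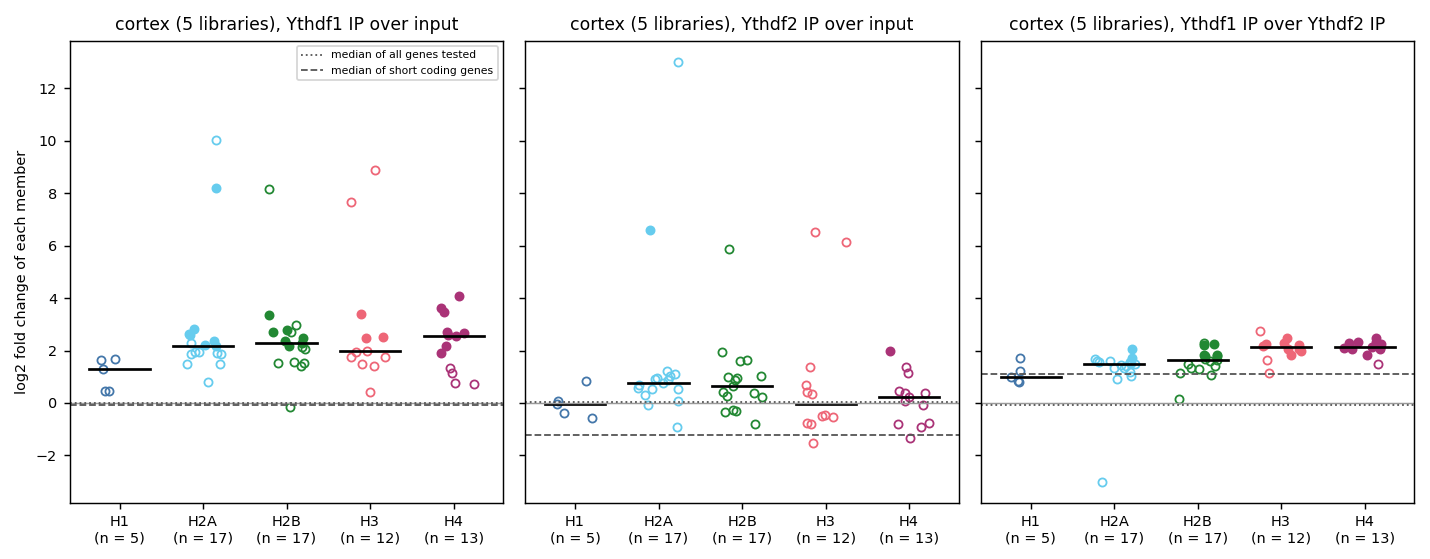
Log2 fold change of each of the 64 members in the 5 cortex libraries other than input replicate 1, by family, for Ythdf1 IP over input, Ythdf2 IP over input and Ythdf1 IP over Ythdf2 IP; symbols and lines as in the plot of the retina libraries. Most points lie above 0 over input with Ythdf1 (median 2.15) and around 0 with Ythdf2 (median 0.42); the isolated points above 5 are members with uncertain reads.

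The difference in enrichment between tissues was tested as an interaction, the retina fold change over input minus the cortex one. With all 12 libraries it called 0 members lower for either antibody (0.00542% of all genes with Ythdf1 and 0.0325% with Ythdf2) and 0 higher (0% with each); at an unadjusted p under 0.05 there were 53 and 41 members, DESeq2 called 41 and 19 lower, and the medians were -4.09 and -3.25. Without cortex input replicate 1, 38 members were lower with Ythdf1 (2.67% of all genes) and 0 higher (1.09%), with a median of -3.33 against -0.03. They comprised 12 of 13 H4 genes, 10 of 12 H3, 8 of 17 H2A, 8 of 17 H2B and 0 of 5 H1. Hist1h4f had the smallest p, with a log2 fold change over input of -1.94 in the retina and 3.61 in the cortex and a difference of -5.54 (SE 0.69, adjusted p = 0.00175). Hist1h4j had -1.31 in the retina and 4.09 in the cortex, with a difference of -5.40 (SE 0.68, adjusted p = 0.00175). With Ythdf2 7 members were lower (0.439% of all genes) and 0 higher (0.417%), with a median of -2.38 against -0.10. Short coding genes also had a lower Ythdf1 enrichment in the retina than in the cortex (50 of 255, median -2.14). On library totals, which put the median of all genes at 1.37 for Ythdf1, 11 members were lower and the median of H1 turned to 0.16. Without cortex input replicate 2 instead, 56 members were called with each antibody.

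**Figure D5:**
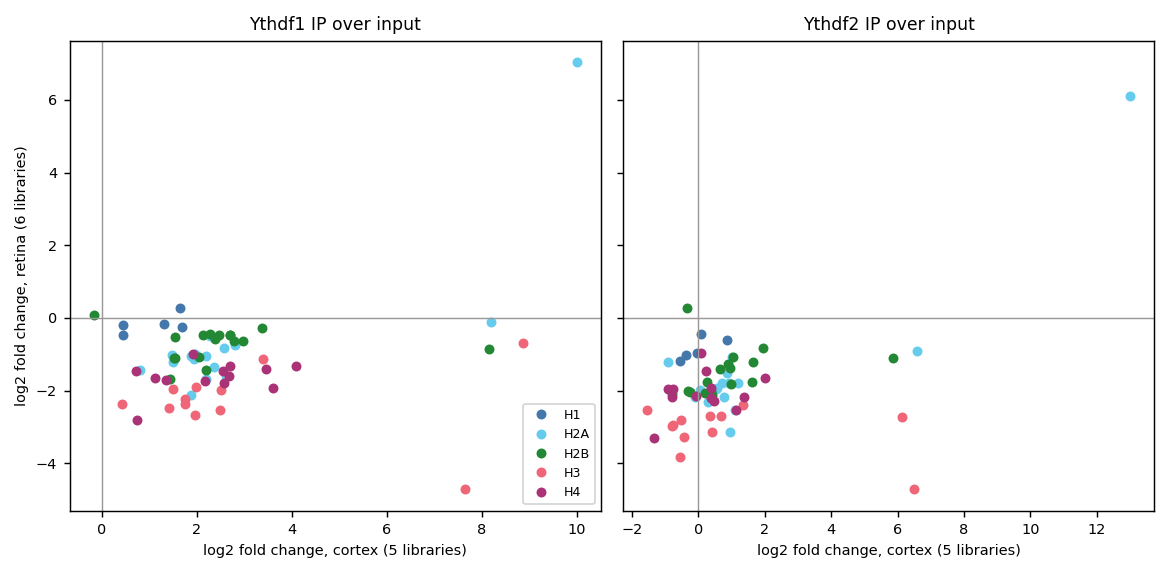
Log2 fold change over input of each member in the 6 retina libraries (vertical axis) against the 5 cortex libraries other than input replicate 1 (horizontal axis), for Ythdf1 and Ythdf2, coloured by family. With Ythdf1 most members lie right of 0 and below 0, while Ythdf2 points scatter around 0 on the cortex axis; points beyond 5 on the cortex axis are members with uncertain reads.

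The inputs of the tissues, which are the denominators of the folds above, differed in histone level. With all libraries 12 members were higher in retina input than in cortex input (3.51% of all genes) and 0 lower (4.01%), with a median of 2.59 against -0.15. Without cortex input replicate 1, 29 were higher (10%) and 1 lower (12%), with a median of 1.73 against -0.14 for all genes; of 255 short coding genes 61 were higher and 11 lower (median 1.22). By family 10 of 12 H3 genes and 11 of 13 H4 genes were higher, against 6 of 17 H2A, 2 of 17 H2B and 0 of 5 H1, but on library totals the medians of H2A (-0.03) and H2B (-0.68) turned negative and that of H4 was 0.01. Hist2h3c2 had 147 and 114 CPM in the retina inputs and 9.37 in cortex input replicate 2 (log2 3.80, SE 0.51, adjusted p = 0.00019). Hist1h3c had 290 and 214 CPM in the retina inputs and 20.2 in that cortex input (log2 3.64, SE 0.59, adjusted p = 0.000772). The member that was lower was Hist1h1a, with 49.9 and 30.6 CPM in the retina inputs and 132 in that cortex input (log2 -1.71, SE 0.53, adjusted p = 0.0337). H3 and H4 thus differed in the direction opposite to this linker gene. This comparison depends on the scaling: on library totals, where the median of all genes was -1.98, 2 members were higher and 5 lower, the members had a median of -0.10, H1 one of -2.16 and H3 one of 0.87. Without retina input replicate 1 or 2 the 12-library comparison called 1 or 2 members, and without cortex input replicate 2 it called 56. Tissue and age (P0 retina, E12.5 cortex) cannot be told apart here.

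Genes that act with the cluster histones were read from lists, beside the shares over all genes given above (16% higher and 14.8% lower with Ythdf1, 7.63% higher and 8.69% lower with Ythdf2 in the retina). The lists overlap slightly. Slbp is counted among both the processing and decay genes and the S phase genes, and Mcm2 among both the chaperone and the S phase genes. In the retina, of 30 genes of histone mRNA processing and decay 4 were higher and 7 lower with Ythdf1 over input (median 0.05), and 2 higher and 2 lower with Ythdf2 (median -0.04). As shares of the list these were 13.3% higher and 23.3% lower with Ythdf1 and 6.67% in each direction with Ythdf2, near the shares over all genes except for those lower with Ythdf1. Slbp, the stem-loop binding protein, had 6.05 and 6.23 CPM in the Ythdf1 IPs, 13.1 and 14.9 in the Ythdf2 IPs and 12.1 and 15.7 in the inputs. It was lower with Ythdf1 over input (log2 -1.18, SE 0.27, adjusted p = 0.0079) and not called with Ythdf2 (log2 0.02, adjusted p = 0.99). Snrpd3, a shared small ribonucleoprotein subunit, was lower with both antibodies: it had 7.53 and 6.69 CPM in the Ythdf1 IPs, with 10.01 and 7.67 in the Ythdf2 IPs, against 102 and 84.8 in the inputs. The scaffold Sympk was higher with both: it had 37.3 and 38.1 CPM in the Ythdf1 IPs, with 28.9 and 25.8 in the Ythdf2 IPs, against 17.2 and 12.9 in the inputs. Upf1 was higher with Ythdf1 (log2 1.13, SE 0.32, adjusted p = 0.022), and Npat, the activator of cluster histone transcription, was not called with either (log2 0.11 and -0.29).

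Replacement histones, which are also made outside S phase, mostly from polyadenylated mRNAs, were lower too: 8 of 11 with Ythdf1 (median -1.84) and 6 of 11 with Ythdf2 (median -1.18), and 0 higher. H3f3a had 5.53 and 6.95 CPM in the Ythdf1 IPs, with 10.5 and 12.7 in the Ythdf2 IPs, against 63.0 and 46.7 in the inputs. H3f3b, which encodes the same protein, differed between the antibodies: it had 47.7 and 40.4 CPM in the Ythdf1 IPs, with 261 and 262 in the Ythdf2 IPs, against 209 and 274 in the inputs. It was lower in Ythdf1 than in Ythdf2 IPs (log2 -2.57, SE 0.27, adjusted p = 0.0011), the direction opposite to the median of the cluster members. H2afz, the H2A.Z gene, had 21.4 and 27.7 CPM in the Ythdf1 IPs, with 27.0 and 35.4 in the Ythdf2 IPs, against 99.0 and 77.2 in the inputs, and was lower with both antibodies (log2 -1.84 and -1.50). H2afx, the H2A form phosphorylated at DNA breaks, had 102 and 88.9 CPM in the Ythdf1 IPs, with 34.9 and 41.7 in the Ythdf2 IPs (log2 1.32, SE 0.28, adjusted p = 0.019), against 73.9 and 47.8 in the inputs. Of 21 histone chaperone and import genes 7 were higher (33.3%) and 5 lower (23.8%) with Ythdf1 (median 0.17). With Ythdf2 3 were higher (14.3%) and 2 lower (9.52%, near the 8.69% of all genes), with a median of -0.13. Under Ythdf1 the importin Ipo5 was higher (log2 1.59) and the histone chaperone Nasp lower (log2 -2.62). Of 31 S phase genes 6 were higher (19.4%, near the 16% of all genes) and 11 lower (35.5%) with Ythdf1 (median -0.33). With Ythdf2 3 were higher (9.68%, near the 7.63% of all genes) and 5 lower (16.1%), with a median of -0.33. Under Ythdf1 the flap endonuclease Fen1 was higher (log2 2.10) and the polymerase clamp Pcna lower (log2 -2.13). Mki67, a marker of cycling cells, was lower with Ythdf2 (log2 -2.33, SE 0.62, adjusted p = 0.031) and not called with Ythdf1 (log2 -1.59, adjusted p = 0.073).

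In the cortex with all 6 libraries 0 genes of these lists were called. Without input replicate 1, Ythdf1 IP over input had 3 of 30 processing and decay genes lower, 2 of 11 replacement histones, 2 of 21 chaperone and import genes and 2 of 31 S phase genes, against 3.12% of all genes, and 1 replacement histone was higher. With Ythdf2, 5 of 30 processing and decay genes were lower, 5 of 11 replacement histones, 3 of 21 chaperone and import genes and 7 of 31 S phase genes, against 6.67% of all genes, and 0 were higher. The medians of the 4 lists lay between -0.72 and -0.35 with Ythdf1 and between -0.90 and -0.38 with Ythdf2, below those of the cluster members (2.15 and 0.42). Between the antibodies 0 genes of the lists were called.

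The letters GGAC, the core of the m6A consensus, were counted on the sense strand of the transcripts, and so was the longer form with a T after them, which is also counted in the shorter one. The longer form occurred in 12 of 12 H3 genes, 4 of 13 H4, 3 of 5 H1, 2 of 17 H2A and 2 of 17 H2B, and in 93.2% of the other protein-coding genes tested, whose transcripts had a median length of 3251 bases against 529 for the members. The median number of the shorter form per kb was 5.26 in H3, 3.66 in H4, 2.16 in H2B, 2.06 in H2A and 2.02 in H1, and 4.14 in the other genes. Across the 64 members this number had a Spearman rho of -0.53 with the retina log2 fold change of Ythdf1 IP over input, -0.50 with that of Ythdf2 IP over input and -0.12 with that of Ythdf1 IP over Ythdf2 IP. In the 5 cortex libraries the values were -0.02, -0.23 and 0.46. Over the 29 members with certain reads they were -0.48, -0.35 and -0.21 in the retina and 0.02, -0.28 and 0.52 in the cortex. Coding length had a rho of 0.05 with the retina Ythdf1 fold change over all members and 0.30 over those with certain reads. These are descriptions over genes that share libraries, families and near-identical sequence, and a letter match is not a methylated site.

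Members with and without a stem-loop match overlapped in their retina fold changes with Ythdf1. There 28 of the 43 members with a match were lower (median -1.14). So were 2 of the 5 in which none was found despite at least 30 annotated bases (median -1.94) and 8 of the other 16 (median -0.96). With Ythdf1 over cortex input replicate 2 alone, the medians were 2.18 with a match, 0.74 in those 5 and 2.27 in the other 16. With Ythdf2 they were 0.39, -0.56 and 0.91. Hist1h4a, the most clearly lowered member with Ythdf1, and Hist2h2be, the member nearest to no change, both belong to the 5 without a match.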

How the data were processed

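The deposited table held 52550 genes with raw counts per gene, which the authors made from 12 libraries; the submitters' processing notes name STAR 2.5, HTSeq and GRCm38, with no annotation release or strand option stated there. The authors also deposited FPKM values, used here only as an alternative. Of the gene IDs 52403 matched GENCODE M21 symbols and 147 did not. Counts were tested with edgeR 4.0.16 (R 4.3.3; TMM, quasi-likelihood, adjusted p under 0.05 after Benjamini-Hochberg over all genes kept by filterByExpr with a minimum count of 10 and a minimum total of 15). Comparisons within a tissue used its 6 libraries, to keep the spread of each tissue apart. In the retina this kept cortex input replicate 1, which went against its label, from setting the spread. The choice was made with earlier results of these data known. Tissue differences used all 12 libraries, and residual degrees of freedom were 3 and 6. Alternatives were DESeq2 1.42.0, other scalings, no filter, limma 3.58.1 on log2(FPKM + 1), a replicate block, leaving out each library and joint models. Settings that combine cortex input replicate 1 left out with a joint model or another scaling, and the members with certain reads, were added after seeing the data. With 2 libraries per group, precision is limited by the spread between libraries more than by depth. The scripts were tested on simulated data.

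Named genes were the 3 members of highest mean CPM per family, the 3 higher and 3 lower called members of smallest p per comparison (or the member of smallest p where none was called), the 2 higher and 2 lower called genes per list, Slbp, Npat, Upf1, H2afz, H2afx, H3f3a, H3f3b and Mki67, and members set apart by sequence; the text gives a part of these. Members, lists and tests were chosen with earlier results of these data known. For stem-loops and letter counts, the protein-coding transcript with the fewest exons, then the longest, was read for each member. For the other protein-coding genes the longest protein-coding transcript was read, whatever its number of exons.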

Additional observations from a re-analysis of the deposited data

Results flagged for a closer look

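With Ythdf1, the summed CPM of all members over input lay below input in the retina and above input in the cortex, with every library on its side. The log2 ratio of group means was -1.29 in the retina and 2.65 in the cortex, a difference of -3.94. For H3 it was -2.15 in the retina and 2.75 in the cortex (difference -4.89), for H4 -1.69 and 2.56 (-4.26), for H2A -1.24 and 2.89 (-4.12) and for H2B -0.83 and 3.07 (-3.90). H1 did not separate in this way, since its retina groups overlapped. These values include the library labelled cortex input replicate 1. Over cortex input replicate 2 alone the cortex values were 1.75 for all members, 1.83 for H3, 1.67 for H4, 1.96 for H2A and 2.19 for H2B, and the differences were -3.04, -3.97, -3.37, -3.20 and -3.02. The difference on the sums was not tested. Over single members the interaction test called 0 of 64 with all 12 libraries and 38 without that library.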

How the results depend on the processing

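Counts of called members are given in the order retina Ythdf1 IP, retina Ythdf2 IP and retina Ythdf1 against Ythdf2 IP, the same for the cortex, Ythdf1 and Ythdf2 enrichment between tissues, and inputs. DESeq2 gave 13 between the retina antibodies, 17 and 2 for the cortex IPs over input, 41 and 19 for the enrichments and 34 for the inputs; no filter on low counts gave 16, 28 and 4, 54 and 36, and 47. The inputs had 0 on library totals and 0 with limma on FPKM. A model of all 12 libraries gave 0, 0 and 0 in the retina; without cortex input replicate 1 it gave 2 between the retina antibodies and 24, 1 and 23 in the cortex. Without that library, TMM of protein-coding genes gave 25, 2 and 22 in the cortex, 41 and 9 for the enrichments and 32 for the inputs, and library totals gave 3, 2 and 0, 11 and 0, and 7. Members with certain reads gave 17, 24 and 4 in the retina and 6 for the inputs, from fewer genes. Leaving out 1 library gave 15 to 52, 26 to 55 and 0 to 37 in the retina, 0 to 57, 0 to 55 and 0 to 27 in the cortex, 0 to 56 and 0 to 56 for the enrichments and 1 to 56 for the inputs. Except where fewer genes or libraries entered, the cause was not tested.

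With the replicate number as a block the counts were 38, 51 and 8 in the retina, 0 in each cortex comparison and enrichment, and 17 for the inputs. Same-numbered libraries had deviations correlated at -0.0707 to 0.111, so the numbers were not taken as a pairing. Of the named genes' alternatives, 544 kept direction and side of the threshold, 83 lost and 31 gained a call, and 3 changed sign, all for retina Ythdf1 IP over input. Leaving out 1 retina input, the log2 values were -0.57 to 0.30 for Hist1h1d, -0.48 to 0.0065 for Hist1h1c and -0.057 to 0.74 for Hist1h1e. With a minimum of 10 or 200 counts there would be 67 or 62 members. As shares of all counts, cluster histones in the cortex were 2.35 times as high in Ythdf1 IPs as in inputs, against 7.26 times as shares of coding counts; without cortex input replicate 1 these were 1.18 and 3.81 times.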

Other observations

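The near-identical H2A genes Hist1h2ao and Hist1h2ap had counts whose ratio stayed between 0.857 and 0.988 in the 12 libraries. Retina input replicates 1 and 2 differed in Mki67, with 15.7 and 84.1 CPM, while their summed cluster histones were 7375 and 5519 CPM.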
